A study of Mus musculus with 9 samples.

Results

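The genes described here are 34 mouse genes of fatty acid oxidation and ketone body use, most of them mitochondrial, picked by name from a list and looked up in a table of 24537 gene names. They were measured by RNA sequencing in the heart and the quadriceps of mice after a sham operation. The mice were C57Bl6 and 8 weeks old at surgery by the series' design text, the study's methods name the strain as C57Bl/6JCrl and the sex as male, and tissue was taken 12 weeks after surgery. The groups were 3 sham heart libraries, 3 sham quadriceps libraries and 3 quadriceps libraries after transverse aortic constriction (TAC), a narrowing of the aortic arch that puts the left ventricle under pressure. The labels and the design text name no transgene or deletion in any group. The heart comparison had no TAC heart, and the TAC table held a selection of secreted-protein genes, among which Fabp3 was the single member. Each member was followed through its transcript with the highest summed count, and 7 of the 34 had more than 1 transcript in the table, 46 transcripts in all.

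Fatty acids enter a muscle cell through carrier proteins, are bound in the cytosol and are activated to acyl-CoA by the long-chain acyl-CoA synthetases. Long-chain acyl-CoA crosses the mitochondrial membranes as acylcarnitine, in a shuttle that malonyl-CoA inhibits at its outer enzyme. Inside, repeated rounds of dehydrogenation, hydration, a further dehydrogenation and thiolysis remove acetyl-CoA units, and the electron transfer flavoprotein takes up the electrons of the opening step. The heart is known to draw most of its energy from fatty acids and to burn ketone bodies, whereas mouse quadriceps consists largely of fast fibers with a strong glycolytic capacity. The comparison of sham heart with sham quadriceps served in the study to sort out transcripts by tissue, and it is used here to set the oxidation genes of both tissues side by side.

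The total count per library ranged from 33102826 to 38382751 in sham heart and from 23383452 to 32989108 in sham quadriceps. The tissue of every library went with its label, although the protocol text names the quadriceps for the heart samples too. Myh6, the cardiac myosin heavy chain, ranged from 17675 to 19589 CPM (counts at a common library size, scaled by the trimmed mean of M-values, TMM) in the heart libraries and was at most 3.33 CPM in quadriceps. Myh4, the fastest skeletal myosin, ranged from 20576 to 40022 CPM in quadriceps and was at most 1.05 CPM in heart. The labels give 1 replicate number per library but not whether heart and quadriceps of the same number shared a mouse, so p-values measure the spread between these libraries.

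Because promoters of several of these genes are textbook targets of nuclear receptors, the 250 bases before the start site are shown for the genes the results turn on. The sequences are those of RefSeq for GRCm38.p6, read 5′ to 3′ on the strand of the gene. Cpt1a (chr19:3323051-3323300, plus strand) and Acadm (chr3:153944644-153944893, minus strand) stand for members that were lower in quadriceps, and capitals mark the nuclear receptor core motif AGGTCA or its reverse complement.
Cpt1a: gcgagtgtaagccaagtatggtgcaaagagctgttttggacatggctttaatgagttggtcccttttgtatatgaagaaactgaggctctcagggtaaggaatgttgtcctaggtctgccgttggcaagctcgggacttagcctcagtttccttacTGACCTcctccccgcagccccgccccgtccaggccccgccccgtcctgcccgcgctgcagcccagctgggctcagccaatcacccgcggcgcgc
Acadm: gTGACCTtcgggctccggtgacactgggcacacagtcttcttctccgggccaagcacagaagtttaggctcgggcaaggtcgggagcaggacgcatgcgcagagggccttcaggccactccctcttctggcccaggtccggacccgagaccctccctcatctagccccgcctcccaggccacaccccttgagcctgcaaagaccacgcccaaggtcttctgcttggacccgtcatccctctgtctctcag
Acsl3 (chr1:78657575-78657824, plus strand) and the most upstream listed start of Acsl6 (chr11:54303574-54303823, plus strand) stand for the synthetases that were higher in quadriceps. Capitals mark the GC box GGGCGG or its reverse complement in Acsl3 and the AGGTCA motif in Acsl6.
Acsl3: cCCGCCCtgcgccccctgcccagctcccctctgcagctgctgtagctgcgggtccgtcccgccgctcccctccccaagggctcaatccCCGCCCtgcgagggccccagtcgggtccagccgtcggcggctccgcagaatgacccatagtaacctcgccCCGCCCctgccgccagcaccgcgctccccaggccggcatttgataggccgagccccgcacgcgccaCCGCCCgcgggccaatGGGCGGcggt
Acsl6: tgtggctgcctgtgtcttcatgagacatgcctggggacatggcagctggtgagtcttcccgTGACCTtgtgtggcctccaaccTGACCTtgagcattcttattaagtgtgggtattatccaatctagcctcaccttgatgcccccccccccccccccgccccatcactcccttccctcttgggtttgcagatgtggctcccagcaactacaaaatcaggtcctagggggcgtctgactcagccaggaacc
Hadha and Hadhb encode the alpha and beta subunits of the mitochondrial trifunctional protein and lie head to head, with RefSeq starts 273 bases apart. The window of Hadha (chr5:30154981-30155230, minus strand) thus covers nearly all of the stretch between them, and capitals mark the GC box.
Hadha: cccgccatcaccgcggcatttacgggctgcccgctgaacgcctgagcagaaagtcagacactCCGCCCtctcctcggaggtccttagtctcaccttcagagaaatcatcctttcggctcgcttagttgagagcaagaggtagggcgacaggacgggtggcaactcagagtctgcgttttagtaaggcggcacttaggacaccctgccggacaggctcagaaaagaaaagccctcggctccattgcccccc

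Windows were listed for 28 of the 34 members, and both strands were searched. AGGTCA stood in the windows of 5 of these 28 genes (17.9%), namely Acadm, Acadvl, Acsl6, Cpt1a and Echs1, against 15.8% of 27025 genes with a window and 13.3% of the 11307 of them that were tested here. The longer form TCAAGGTCA, which contains AGGTCA, stood in 1 member, Acsl6, against 0.422% of all and 0.301% of tested genes. The GC box stood in 16 of 28 (57.1%) against 35.4% of all genes and 61.2% of the tested genes. The CCAAT motif also stood in 16 of 28, against 37.5% of all and 39.8% of tested genes, and TATAAA stood in 1 member, Acacb, against 14.3% of all and 8.37% of tested genes. These are matches of letters in a short window and say nothing of whether a factor binds there.

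Most members were lower in quadriceps than in heart. With edgeR's quasi-likelihood test and an adjusted p under 0.05, 29 of the 34 were lower, 3 were higher (Acsl3, Acsl6 and Hadh, the last with TMM but not with library totals) and 2 passed in neither direction (Acaa1a and Mlycd). Of all 24280 transcripts tested, 34.4% were lower and 32.2% were higher. The median log2 fold change of quadriceps over heart was -0.75 over the members and -0.06 over all transcripts, and 31 of the 34 members lay below the latter. A log2 fold change under -1 was reached by 13 members, but the share of all transcripts under that cut was not counted. In bulk tissue, fewer cells of a type and less RNA of a gene per cell cannot be told apart, and this holds for every value below.

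**Figure D1:**
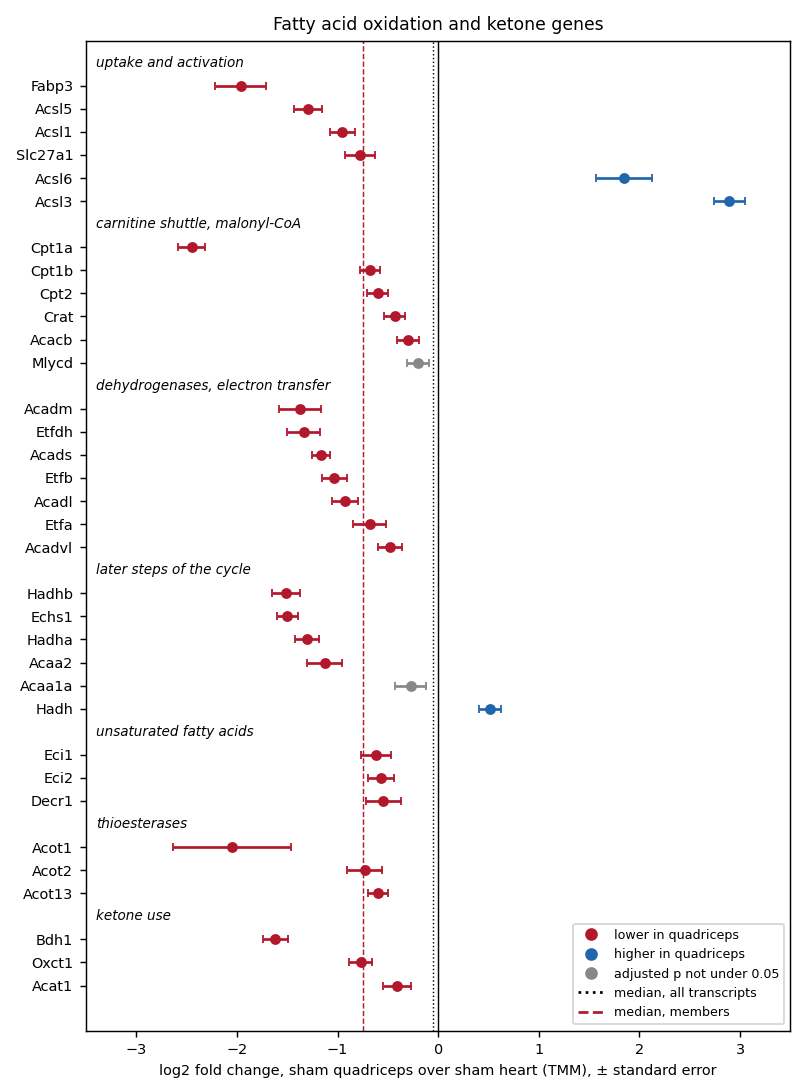
Log2 fold change of sham quadriceps over sham heart for the 34 genes by role, with standard errors (n = 3 libraries per tissue, TMM scaling). Points left of 0 are lower in quadriceps, and 29 genes passed the test in that direction. The dashed line at -0.75 is the median of all 34 genes, and the dotted line at -0.06 is that of all transcripts.

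The values of heart and quadriceps did not overlap in 33 of the 34 members, Acaa1a being the exception, where 72.6% of all transcripts showed no overlap. The size criterion of the study was a log2 fold change of quadriceps over heart above 2 with a p under 0.05. It was applied here with an unadjusted p and mirrored for genes lower in quadriceps. By this criterion Cpt1a and Acot1 were lower in quadriceps and Acsl3 was higher. Among all transcripts 8.64% were lower and 7% higher by that criterion. The count of 2 rests partly on Acot1, which lost the criterion without heart library 2 or 3 or without quadriceps library 2 or 3, so that 1 member was left. Without heart library 1 or quadriceps library 1 Fabp3 joined them, so that 3 members were counted.

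The size of these differences depended on the scaling. TMM assigned factors of 1.29 to 1.31 to the heart libraries and 0.725 to 0.833 to the quadriceps libraries, and division by library totals alone lowered the median over all transcripts by 0.75 on the log2 scale. With library totals 62.6% of all transcripts were lower in quadriceps and 13.3% higher. Of the members, 31 were then lower and 2 higher, and their median was -1.49 beside -0.80 over all transcripts. A change of this kind moves all transcripts by about the same amount. The distance of the members' median from that of all transcripts was thus bound to change little, which is no separate evidence for it. Hadh, which was higher with TMM, had a log2 fold change of -0.23 with library totals.

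**Figure D2:**
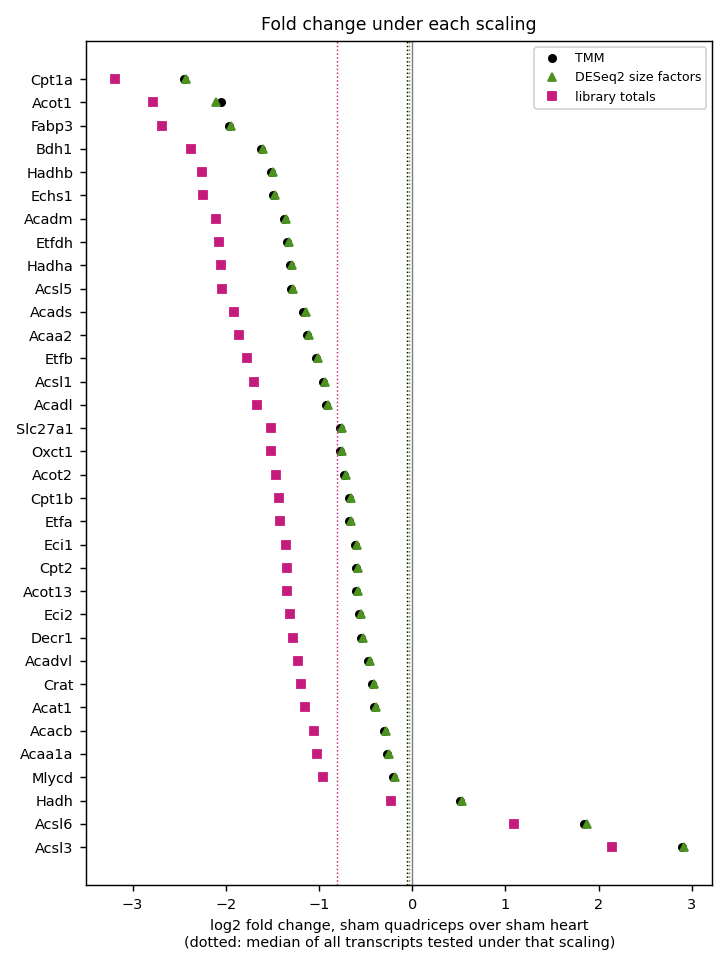
Log2 fold change of each gene under 3 scalings, TMM, DESeq2 size factors and library totals, with dotted lines at the median of all transcripts under each. Values with library totals lie to the left by about the same amount for every gene, and Hadh is the gene that changes side, from 0.52 to -0.23.

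Shares within a library need no scaling between libraries. The 34 transcripts took 1.02%, 1.03% and 1.12% of all counts in heart and 0.416%, 0.301% and 0.313% in quadriceps. This share in heart was thus 3.08 times that of quadriceps, and the groups did not overlap. Fast muscle markers, which include some of the most abundant transcripts of the tissue, summed to between 86428 and 112775 CPM in quadriceps and to at most 4.01 CPM in heart. The part of such abundant transcripts in the lower share was not tested.

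Uptake and activation held both the largest rise and some of the largest falls. Fabp3, the heart-type fatty acid binding protein, lies on chromosome 4 of GRCm38 from 130308595 to 130315463. It was at 336, 386 and 374 CPM in heart and at 138, 63.8 and 78.8 CPM in quadriceps. Every quadriceps library lay below every heart library, but library 1 stood well above the other two. This gave a log2 fold change of -1.96 (SE 0.25, edgeR adjusted p = 0.000107), or 3.90-fold lower in quadriceps. Without quadriceps library 1 it was -2.33. Fabp3 shares 37.3% of its 50-base stretches with other annotated genes, 29.2% with Fabp3-ps1, so its level is uncertain here and in the TAC comparison.

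Slc27a1, a fatty acid transport protein of the plasma membrane, had a log2 fold change of -0.78 (SE 0.15, edgeR adjusted p = 0.00138). The synthetases, which attach coenzyme A to long-chain fatty acids, went in different directions. Acsl1, the main synthetase of oxidative tissues, lies on chromosome 8 from 46471037 to 46536051. Its values were 494, 528 and 541 CPM in heart and 302, 267 and 239 CPM in quadriceps, with no overlap. That is a log2 fold change of -0.95 (SE 0.12, edgeR adjusted p = 0.000101). Acsl5 was lower too, from 9.93 ± 0.37 CPM (SD, n = 3) in heart to 4.05 ± 0.65 CPM in quadriceps, a log2 fold change of -1.30 (edgeR adjusted p = 2.75e-05).

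Acsl3, a synthetase known from the endoplasmic reticulum and lipid droplets, lies on chromosome 1 from 78657825 to 78707743. It was at 7.87, 9.24 and 10.5 CPM in heart and at 77.4, 69.9 and 57.6 CPM in quadriceps. All quadriceps libraries lay far above all heart libraries. Its log2 fold change was 2.89 (SE 0.15, edgeR adjusted p = 2.74e-07), or 7.43-fold higher in quadriceps, and it stayed higher with library totals at 2.15. Its 3 tested transcripts ranged from 2.81 to 2.90.

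Acsl6, a synthetase known chiefly from the brain, lies on chromosome 11 from 54303798 to 54364756. The heart libraries held 15.7, 7.37 and 7.01 CPM and the quadriceps libraries 33.7, 38.1 and 36.6 CPM. Heart library 1 held more than 2 times the level of the other two, yet no heart library reached quadriceps. Its log2 fold change was 1.85 (SE 0.28, edgeR adjusted p = 0.00029), and without heart library 1 it was 2.32, past the size criterion.

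Heart library 1 also carried the highest level of atrial genes. Myl7, the atrial myosin light chain, was at 43.6, 3.26 and 0.0699 CPM in the heart libraries, Myl4 at 143, 15.03 and 2.12 CPM and Sln at 17.6, 0.954 and 0.0466 CPM. These 3 genes were chosen after their values were seen, and their part in the Acsl6 level of that library was not tested. The summed cardiomyocyte list, of which they are members, ranged only from 29671 to 32566 CPM across the heart libraries.

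Levels can be compared between genes only per length of transcript, in as RPKM, the reads per kilobase scaled by the library total. Acsl1 provided 93.4% ± 1.40 of the summed RPKM of the 4 synthetases in heart and 67.9% ± 1.35 in quadriceps (SD, n = 3). The share of Acsl3 was 1.62% ± 0.180 in heart and 16.9% ± 0.884 in quadriceps, and that of Acsl6 was 2.74% ± 1.44 and 13.9% ± 1.95. Neither pair of shares overlapped between the tissues. Acsl1 was thus the leading transcript of these 4 synthetases in each of the 6 libraries, with a smaller margin in quadriceps. Acsl4, a long-chain synthetase that is not a member, is left out of these shares. It was at 12.8 ± 1.22 CPM in heart and 38.2 ± 4.19 CPM in quadriceps (SD, n = 3).

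**Figure D3:**
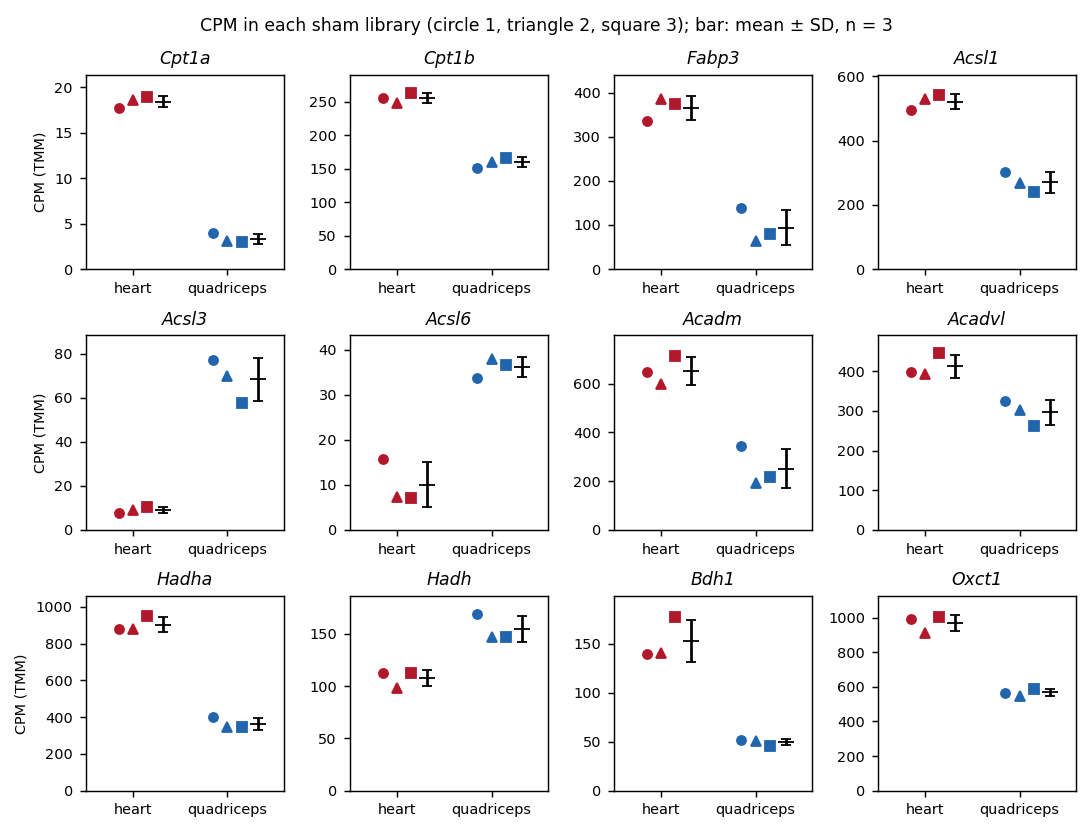
CPM (TMM) of 12 genes in each sham library, with the mean and SD of each tissue beside the points (n = 3) and every axis starting at 0. Acsl3 and Acsl6 are higher in all 3 quadriceps libraries, as is Hadh on this scaling but not with library totals, and the other 9 genes are lower in all of them.

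Cpt1a, the liver-type isoform of the outer enzyme of the carnitine shuttle, showed the largest fall of the members with TMM over all 6 libraries, while Fabp3 fell more with limma on RPKM (-2.79 against -2.47) and Acot1 without quadriceps library 1 (-2.96 against -2.58). The gene lies on chromosome 19 from 3322334 to 3385733. It was at 17.7, 18.6 and 18.9 CPM in heart and at 3.97, 3.09 and 2.94 CPM in quadriceps. The groups lay far apart and replicates lay close together. Quadriceps over heart gave a log2 fold change of -2.45 (SE 0.13, edgeR adjusted p = 3.39e-07), or 5.47-fold lower in quadriceps.

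Cpt1b, the muscle-type isoform, lies on chromosome 15 from 89416405 to 89425863. Its values were 255, 249 and 264 CPM in heart and 152, 161 and 167 CPM in quadriceps, and they did not overlap. Its log2 fold change was -0.68 (SE 0.10, edgeR adjusted p = 0.000234). Cpt1b shares 93.0% of its 50-base stretches, the read length, with the overlapping annotated gene Gm44502 on the same strand, so reads of the pair may have been split or dropped in counting.

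Both isoforms were lower in quadriceps, to different extents. Per length, Cpt1b stood 21.5, 19.9 and 20.8 times above Cpt1a in heart and 56.9, 77.3 and 84.5 times above it in quadriceps. This ratio, taken within each library, was 3.52 times higher in quadriceps and did not overlap. The muscle-type isoform thus led in both tissues.

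Cpt2, the inner enzyme of the shuttle, had a log2 fold change of -0.60 (SE 0.11, edgeR adjusted p = 0.000781). Crat, which links acetyl-CoA with carnitine, had -0.43 (SE 0.11, edgeR adjusted p = 0.00521). Not every gene of the shuttle was lower. Slc25a20, its carrier in the inner membrane, is not a member and had 0.43 with TMM (SE 0.14, edgeR adjusted p = 0.0208). It was at 70.5, 69.9 and 73.1 CPM in heart and at 117, 90.2 and 80.1 CPM in quadriceps. Among the members of the shuttle and its regulators, the enzymes of malonyl-CoA had the smallest log2 fold changes. Acacb, which makes malonyl-CoA at the mitochondrion, had a log2 fold change of -0.30 with an adjusted p of 0.0392 from edgeR, and that call was lost in 4 of the 6 fits that left out 1 library. These were the fits without heart library 2, heart library 3, quadriceps library 1 and quadriceps library 3, with edgeR adjusted p from 0.0970 to 0.155, and DESeq2 gave 0.0634.

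Mlycd, which removes malonyl-CoA, was at 23.9, 23.9 and 29.2 CPM in heart and at 22.7, 21.8 and 22.3 CPM in quadriceps. The quadriceps values lay just under the heart values, and the log2 fold change of -0.20 did not pass the test (SE 0.11, edgeR adjusted p = 0.131). With library totals it did, at -0.95. The RPKM ratio of Acacb to Mlycd was 0.994 ± 0.142 in heart and 0.923 ± 0.111 in quadriceps (SD, n = 3), a difference within the spread of the libraries.

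All 7 genes of the acyl-CoA dehydrogenases and the electron transfer chain that serves them were lower in quadriceps, with a median log2 fold change of -1.03. Acadm, the medium-chain dehydrogenase, lies on chromosome 3 from 153922357 to 153944632. It was at 647, 598 and 711 CPM in heart and at 343, 193 and 219 CPM in quadriceps. No quadriceps library reached the heart values, and library 1 was the highest of the 3. Acadm had a log2 fold change of -1.37 (SE 0.21, edgeR adjusted p = 0.00029).

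Acadvl, the very-long-chain dehydrogenase, showed the smallest fall of the group. Its values were 398, 394 and 445 CPM in heart and 324, 303 and 262 CPM in quadriceps, which did not overlap. Acadvl had a log2 fold change of -0.48 (SE 0.12, edgeR adjusted p = 0.00652). Acadvl lies on chromosome 11 from 70010183 to 70015411 and shares 24.0% of its 50-base stretches with Dvl2, which overlaps it on the opposite strand. The strand setting of the counting is not given in the sources used here, so reads of this pair could not be told apart.

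Acadl, the long-chain dehydrogenase, had a log2 fold change of -0.93 and Acads, the short-chain dehydrogenase, of -1.17. The RPKM ratio of Acadl to Acadvl was 2.13, 2.23 and 2.07 in heart and 1.65, 1.38 and 1.67 in quadriceps. This ratio was lower in every quadriceps library. Etfdh, which passes electrons from the flavoprotein to ubiquinone, fell by 1.34 on the log2 scale (SE 0.17, edgeR adjusted p = 8.07e-05). The flavoprotein subunits Etfb and Etfa fell by 1.03 and 0.68. Etfb shares 67.3% of its 50-base stretches with the overlapping gene Gm45233, so its level is uncertain.

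Of the 6 genes of the later steps of the cycle, 4 were lower and 1, Hadh, was higher with TMM but not with library totals. Hadhb, the thiolase subunit of the trifunctional protein, was at 90.2, 88.8 and 94.1 CPM in heart and at 39.1, 27.6 and 28.7 CPM in quadriceps. The tissues were clearly apart, and the log2 fold change was -1.52 (SE 0.14, edgeR adjusted p = 1.15e-05). Hadha, the other subunit, was at 877, 878 and 948 CPM in heart and at 401, 347 and 345 CPM in quadriceps. Its log2 fold change was -1.31 (SE 0.12, edgeR adjusted p = 1.08e-05).

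The RPKM of Hadha stood 5.34 ± 0.0952 times above that of Hadhb in heart and 6.27 ± 0.654 times in quadriceps (SD, n = 3). Hadhb, which lies on chromosome 5 from 30155248 to 30184593, shares 62.5% of its 50-base stretches with other annotated genes, nearly all of them with Gm13910. Hadha, from 30118304 to 30155162, shares 0.655%. The part of these shared stretches in the unequal levels of the subunits was not tested.

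Echs1, the short-chain enoyl-CoA hydratase, was at 147, 139 and 158 CPM in heart and at 55.4, 53.7 and 47.9 CPM in quadriceps, and its log2 fold change was -1.50 (SE 0.11, edgeR adjusted p = 2.00e-06). Acaa2, the mitochondrial thiolase, fell by 1.13 on the log2 scale (edgeR adjusted p = 0.000337). Acaa1a, a thiolase of peroxisomes, was at 5.14, 4.99 and 4.77 CPM in heart and at 4.12, 4.85 and 3.28 CPM in quadriceps. These groups overlapped, and the log2 fold change of -0.27 did not pass the test (SE 0.15, edgeR adjusted p = 0.143). It passed without quadriceps library 2, at -0.41 with an edgeR adjusted p of 0.0367, and with library totals, at -1.03. Acaa1a shares 35.1% of its 50-base stretches with other genes, 34.0% with Acaa1b, so its level is uncertain.

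Hadh, the short-chain hydroxyacyl-CoA dehydrogenase, lies on chromosome 3 from 131233419 to 131272101. The heart libraries were at 112, 98.6 and 113 CPM and the quadriceps libraries at 169, 147 and 147 CPM. All quadriceps values lay above all heart values on this scale, and the log2 fold change was 0.52 (SE 0.11, edgeR adjusted p = 0.00218), whereas it was -0.23 with library totals (edgeR adjusted p = 0.133). A ratio within each library does not depend on that choice. The RPKM ratio of Hadha to Hadh was 3.64, 4.15 and 3.92 in heart and 1.11, 1.10 and 1.09 in quadriceps, 3.55 times lower in quadriceps. Hadh thus stood higher relative to Hadha in quadriceps under any scaling, while the direction of its own change is not settled by these data.

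The 3 enzymes that prepare unsaturated fatty acids for the cycle were lower, by a similar amount. Eci1, an enoyl-CoA isomerase, was at 61.8, 64.6 and 68.3 CPM in heart and at 53.0, 39.5 and 34.3 CPM in quadriceps, with a log2 fold change of -0.62 (SE 0.15, edgeR adjusted p = 0.00554). Decr1, the mitochondrial dienoyl-CoA reductase, was at 161, 161 and 181 CPM in heart and at 152, 96.1 and 96.6 CPM in quadriceps. Quadriceps library 1 nearly reached the heart level. The log2 fold change of Decr1 was -0.55 (SE 0.18, edgeR adjusted p = 0.0216), and the call was lost without heart library 3, quadriceps library 2 or quadriceps library 3, where the edgeR adjusted p ranged from 0.0600 to 0.0829. Eci2, the other isomerase, had a log2 fold change of -0.57.

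Thioesterases split acyl-CoA into free fatty acid and coenzyme A, and all 3 were lower. Acot13 was at 246, 236 and 244 CPM in heart and at 169, 161 and 148 CPM in quadriceps, with a log2 fold change of -0.60 (SE 0.10, edgeR adjusted p = 0.000599). Acot1, a cytosolic thioesterase, had 42, 89 and 84 raw counts in heart and 18, 8 and 0 in quadriceps. The groups did not overlap, but at these low counts its log2 fold change of -2.05 had an SE of 0.59 (edgeR adjusted p = 0.0119). It ranged from -1.57 without quadriceps library 3 to -2.96 without quadriceps library 1. Acot2, the mitochondrial form, had -0.73 (edgeR adjusted p = 0.00476). Acot1 and Acot2 are neighbors on chromosome 12 and near copies of each other, with 33.2% and 27.7% of their 50-base stretches shared with other genes, so their separate values are uncertain.

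The ketone enzymes were all lower in quadriceps, Bdh1 by the most. Bdh1, which oxidizes beta-hydroxybutyrate to acetoacetate, lies on chromosome 16 from 31422280 to 31458901. It was at 140, 141 and 177 CPM in heart and at 51.5, 51.2 and 46.1 CPM in quadriceps. The groups were well separated, and the log2 fold change was -1.62 (SE 0.12, edgeR adjusted p = 3.34e-06), or 3.08-fold lower in quadriceps.

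Oxct1, which activates acetoacetate with the coenzyme A of succinyl-CoA, lies on chromosome 15 from 4026383 to 4155344. Its values were 991, 913 and 1001 CPM in heart and 567, 549 and 588 CPM in quadriceps. They spread little and lay apart, and the log2 fold change was -0.77 (SE 0.11, edgeR adjusted p = 0.000247). Oxct1 shares 12.1% of its 50-base stretches with BC037032, which overlaps it on the opposite strand.

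Acat1, the thiolase that splits acetoacetyl-CoA, was at 329, 315 and 344 CPM in heart and at 299, 217 and 226 CPM in quadriceps. The highest quadriceps library lay close under the lowest heart library. Its log2 fold change was -0.41 (SE 0.14, edgeR adjusted p = 0.0252), and the call was lost in each of the 5 fits that left out a library other than quadriceps library 1, where the edgeR adjusted p ranged from 0.0526 to 0.0867. The RPKM ratio of Oxct1 to Bdh1 was 6.37, 5.81 and 5.07 in heart and 9.87, 9.63 and 11.5 in quadriceps. The opening step of ketone oxidation was thus lower relative to the next in every quadriceps library.

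Per length, the order of the members was similar but not identical in the tissues. In heart the highest RPKM were those of Fabp3 at 748 ± 60.5, Acadl at 529 ± 25.2, Acot13 at 461 ± 5.91, Etfb at 440 ± 38.9 and Acadm at 413 ± 34.5 (SD, n = 3). Acot13 and Etfb each lay within the summed SDs of the next gene, while Fabp3, Acadl and Acadm did not. In quadriceps they were Acot13 at 181 ± 22.7, Acadl at 166 ± 35.0, Etfb at 128 ± 22.1, Oxct1 at 127 ± 10.7 and Fabp3 at 116 ± 57.6, and each of these 5 lay within the summed SDs of the next. Acot1 was the lowest in both, with 1.29 ± 0.486 in heart and 0.170 ± 0.178 in quadriceps. Hadh moved from rank 16 in heart to rank 10 in quadriceps and Acsl3 from rank 33 to rank 21.

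**Figure D4:**
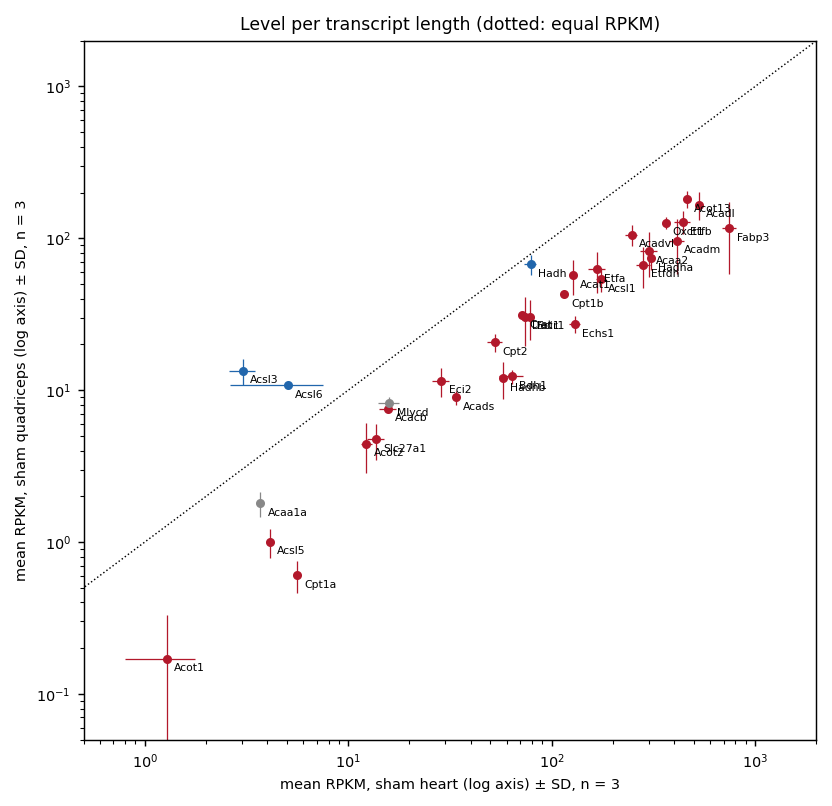
Mean RPKM of each gene in sham quadriceps against sham heart, both on log axes, with SD (n = 3) and a dotted line of equal RPKM. All but Acsl3 and Acsl6 lie under the line, since RPKM is scaled by library totals, and Fabp3 goes from rank 1 in heart to rank 5 in quadriceps.

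Mitochondrial genes outside fatty acid oxidation differed as well. Of 21 reference genes of the citrate cycle, the respiratory chain and mitochondrial upkeep, 11 were lower in quadriceps, 3 were higher and 7 passed in neither direction, with a median log2 fold change of -0.32. Ogdh, a subunit of the oxoglutarate dehydrogenase of the citrate cycle, had -2.02, and Cox4i1, a subunit of cytochrome c oxidase, had -1.03. Vdac1, the channel of the outer membrane, had 0.75 and Tfam, a factor of mitochondrial DNA, had 0.68. Relative to Cs, the transcript of citrate synthase, 28 of the 34 members were lower in quadriceps, with a median difference of -0.38 on the log2 scale of the ratio. This count rests on Cs as the single reference, while the 21 reference genes ranged from -2.02 to 0.75. The share of all transcripts that were lower relative to Cs was not counted, so the count of members cannot be set against it.

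The ratio to Cs did not separate every member. The RPKM of Hadha was 1.19, 1.26 and 1.36 times that of Cs in heart and 0.801, 0.584 and 0.650 times in quadriceps, with no overlap. That of Acadvl was 0.951, 0.992 and 1.12 times in heart and 1.14, 0.898 and 0.869 times in quadriceps, where the groups overlapped. Cs itself had a log2 fold change of -0.39 (edgeR adjusted p = 0.0124).

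Other genes of these and related pathways, listed by function, were less uniform. Of 25 genes on a list of further mitochondrial oxidation genes 13 were lower and 7 higher in quadriceps, with a median log2 fold change of -0.50. That list is not confined to fatty acids, since it also holds enzymes of amino acid breakdown such as Ivd, Gcdh, Hibch, Acad8 and Acadsb. Acss1, which activates acetate in the mitochondrion, had -2.81 and Acsf2, an acyl-CoA synthetase, had -2.36, whereas Acss3, a short-chain synthetase, had 2.62 and the long-chain synthetase Acsl4 had 1.58. Of 23 peroxisomal genes 20 were tested, 6 were lower and 7 higher, and the median was -0.01. Abcd2, a peroxisomal transporter of very long acyl-CoA, had 2.55 and Pecr, a peroxisomal reductase, had 1.62.

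Ech1, which both lists hold, had -1.44. Acot3, a peroxisomal thioesterase of the Acot1 family, had no count in any quadriceps library and a mean of 0.424 CPM in heart, which makes it at least 9.73-fold higher in heart when quadriceps is set to 3 counts over the group. With that bound in place of the fitted value the median of the list stayed at -0.01.

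Of 9 further ketone genes 7 were tested, 4 were lower and 1 was higher. Slc16a7, a carrier of monocarboxylates, had a log2 fold change of -2.08 and Bdh2 had 1.79 at no more than 0.404 CPM in any library. Of 12 genes that supply fatty acids 11 were tested, 6 were lower and 1 was higher. Mgll, a monoglyceride lipase, had -2.22, Cd36, a fatty acid translocase, had -1.82 and Abhd5, a coactivator of lipolysis, had 0.39.

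**Figure D5:**
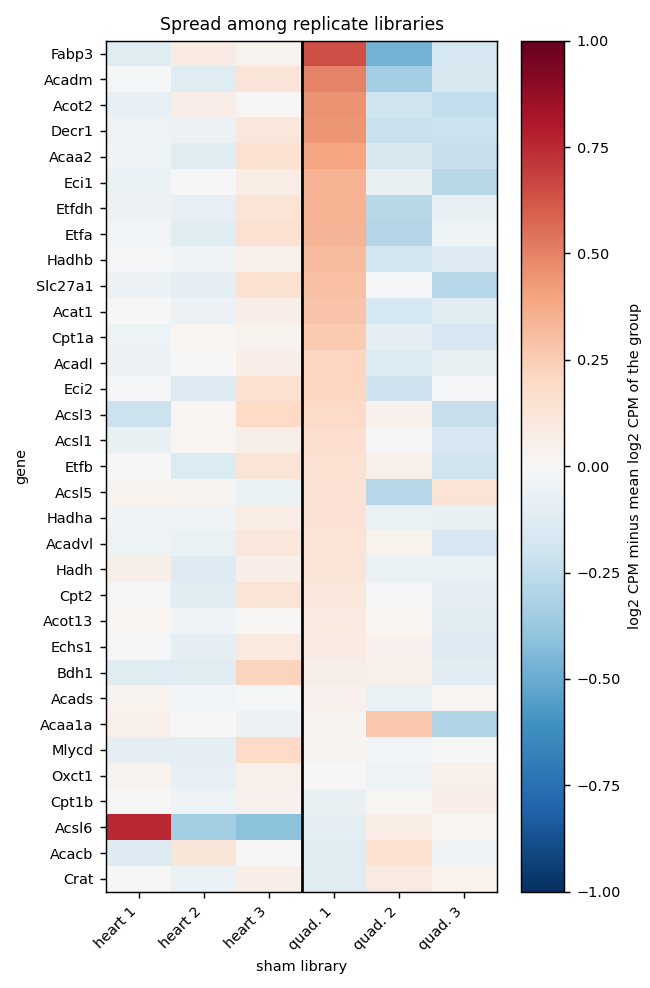
Difference of each sham library from the mean log2 CPM of its tissue for 33 genes, sorted by quadriceps library 1, without Acot1, which had 0 counts in a quadriceps library. Quadriceps library 1 was the highest of its tissue in 28 of the 34 genes, and heart library 1 stands out for Acsl6.

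The quadriceps libraries varied among themselves more than the heart libraries. The median coefficient of variation of the members was 6.86% in heart and 14.1% in quadriceps, beside 7.62% and 16.2% over all transcripts. The larger spread in quadriceps was thus not particular to the members. Of the 34 members 29 varied more in quadriceps, and the share of all transcripts that did so was not counted. Library 1 held the highest quadriceps value for 28 of the 34 members, while it held the highest value for 38.2% of all transcripts. Its median excess over the mean of the other two libraries was 0.24 on the log2 scale over the members and 0.01 over all transcripts. Fabp3 stood 1.94-fold higher there, Acadm 1.67-fold, Acot2 1.59-fold and Decr1 1.58-fold.

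Several other genes were highest in that library too. Pdk4, a kinase that restrains pyruvate oxidation, was at 777, 257 and 154 CPM in quadriceps libraries 1, 2 and 3. Angptl4, a fasting-induced lipase inhibitor, was at 8.79, 2.93 and 1.86 CPM. Adipoq, the adipocyte hormone adiponectin, was at 43.5, 17.8 and 5.31 CPM. These genes were chosen after their values were seen.

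The 8 tested adipocyte markers summed to 533, 260 and 199 CPM in the quadriceps libraries and to between 246 and 316 CPM in heart, and 6 of the 8 were higher in quadriceps. Endothelial markers summed to 568, 362 and 368 CPM in quadriceps and to between 743 and 858 CPM in heart, and 7 of 8 were lower in quadriceps. Fabp4, a fatty acid binding protein that stands on both lists, made up much of these sums, with 396, 202 and 180 CPM in quadriceps. Without it the adipocyte markers summed to 137, 57.3 and 18.9 CPM in quadriceps and to between 11.5 and 12.9 CPM in heart, and the endothelial markers to 172, 160 and 187 CPM in quadriceps and to between 510 and 554 CPM in heart. Quadriceps library 1 was thus the highest of its tissue in adipocyte markers with or without Fabp4, and in endothelial markers only with it. Fibroblast markers were highest there too, at 598, 429 and 482 CPM in quadriceps libraries 1, 2 and 3. Fast muscle markers were lowest there, at 86428, 112333 and 112775 CPM, as were slow muscle markers, at 809, 1044 and 958 CPM. Macrophage markers were highest in library 3, at 46.1, 36.8 and 54.9 CPM. Cardiomyocyte markers summed to at most 38.7 CPM in quadriceps. The part of adipocytes, endothelial cells, fibroblasts, macrophages or muscle fibers in the members' values was not tested. Without quadriceps library 1, 28 members were lower, 3 were higher and the median log2 fold change was -0.88.

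In heart, library 3 held the highest value for 26 of the 34 members, beside 34.1% of all transcripts. Without it 26 members were lower in quadriceps and the median log2 fold change was -0.71.

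Fabp3 was also measured in quadriceps after TAC, in a table of 587 secreted-protein genes of which 586 were tested. The 3 sham libraries are the same as above, so the contrasts share them. Fabp3 had 3760, 1527 and 1394 raw counts in sham and 657, 1162 and 1727 after TAC, where the last library bears a number that is in no label. Scaled by TMM over the listed genes these were 2900, 1464 and 1818 CPM of listed genes in sham and 604, 1079 and 1641 CPM after TAC. The groups overlapped on this scale.

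The log2 fold change of Fabp3 in TAC over sham was -0.90 (SE 0.39, edgeR adjusted p = 0.115), which did not pass, where 11.9% of the listed genes were lower after TAC. An exact permutation test of the CPM gave p = 0.2 (two-sided, smallest possible 0.1). Library totals were worked out from the counts, lengths and RPKM of the 3 sham libraries and of TAC libraries 1 and 2. No total was worked out for the last TAC library, whose RPKM column was left unused. That library held 1727 raw counts of Fabp3, the most after TAC. With library totals the values were 115, 46.3 and 59.6 CPM in sham and 13.5 and 23.7 CPM after TAC. They lay apart, with a log2 fold change of -1.99 (edgeR adjusted p = 0.0159) beside a median of -0.63 over all listed genes, which was 0.03 with TMM over all 6 libraries.

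The call thus depended on the libraries, and over the same 5 libraries the scaling changed the size of the fold change but not the call. Library totals were 48614494 and 48999600 after TAC against at most 32989108 in sham. Without the TAC library of unlabelled number, hence over the same 5 libraries, the TMM value was -1.40 (edgeR adjusted p = 0.0338), without TAC library 1 it was -0.66, and without sham library 1 it was -0.61 (edgeR adjusted p = 0.315). Adipoq was at 912, 408 and 123 CPM of listed genes in sham and at 496, 109 and 672 CPM after TAC. Cfd, another adipocyte gene, was at 969, 490 and 123 CPM of listed genes in sham and at 1067, 214 and 1352 CPM after TAC. Adipoq was thus highest in sham library 1, as was Fabp3, whereas Cfd was highest in a TAC library, and their part in the Fabp3 values was not tested.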

How the data were processed

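Quadriceps and heart RNA of 9 libraries (3 sham heart, 3 sham quadriceps, 3 TAC quadriceps) had been sequenced as single-end reads of 50 bases. The authors trimmed with Trim Galore!, aligned with STAR to mm10, counted reads per RefSeq transcript with Rsubread and tested with edgeR (tools partly named in the submitters' processing notes). Strand setting and treatment of reads with several matches are not given in the sources used here. The authors deposited raw counts and RPKM, which are counts per transcript length and per library total. The authors' own fold changes, F values, p-values and FDR in both tables were not used. The RPKM column of the TAC library numbered 4, 1 column, was left unused, since no label bears that number.

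The counts were fitted with edgeR 4.0.16 in R 4.3.3 by the quasi-likelihood test after TMM, over the transcripts that exceeded 5 counts in 2 or more of 6 libraries (24280 of 35745), with Benjamini-Hochberg adjustment over all of them, two-sided, and calls at an adjusted p under 0.05. CPM are TMM-scaled. Replicate libraries differed by more than sampling noise (chi-square per degree of freedom at least 7.15). The members and the gene lists were chosen with earlier results of these data known. Named were all members, with each library's value for the extremes of each role group and for Cpt1a, Cpt1b, Acadvl, Acsl1, Bdh1 and Oxct1; further members and genes with library values were added after their values were seen. Of each other list the largest changes in each direction were named. Some genes chosen in this way are not reported here.

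Alternatives were DESeq2 1.42.0, library totals in place of TMM, other count filters, 1 transcript per gene, limma 3.58.1 on log2(RPKM + 0.5), a replicate block and leaving out each library. For TAC, library totals of 5 libraries and 4 libraries without a block were added after the data were seen. Gene positions are from GENCODE vM21 (GRCm38), and 20 of the 34 members overlap another annotated gene. Of the members' transcripts, 8 share over 20% of their 50-base stretches with transcripts of other genes. The fit was checked on simulated data in which as many transcripts rose as fell, so that check does not bear on the choice of scaling. No protein sequences were used here, and no promoter window was listed for 6 members.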

Additional observations from a re-analysis of the deposited data

How the results depend on the processing

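Of the 441 values of single members under 13 alternatives, 420 kept their direction and their side of the threshold, and 28 of the 34 members did so under every alternative run for them. Acot1 has no value with at least 10 counts in every library. The count of members lower in quadriceps (29) ranged from 26 to 31. The direction turned for Hadh alone, with log2 fold changes of -0.23 under library totals and -0.23 under limma on log2(RPKM + 0.5), both of which leave out the TMM factors. Under these settings the members' median was -1.49 and -1.43, beside -0.80 and -0.49 over all transcripts. By a log2 fold change beyond 2, 10 and 8 members were lower, in place of 2. Of all transcripts 17.2% and 5.54% were lower by that criterion, in place of 8.64%. With limma 0 members were higher by that criterion (Acsl3 at 1.97). Over all transcripts limma called 63.1% lower and 13.2% higher. Leaving out 1 library gave 1 to 3 members lower and 1 to 2 higher by the size criterion. Heart and quadriceps libraries of the same number did not deviate together (r = 0.05, -0.05 and 0.04). With the replicate block 28 members were lower, 3 higher and 3 lower by size, and Acacb lost its call (adjusted p = 0.0561). Fabp3 after TAC was -1.35 with the replicate block over the 4 libraries numbered 1 and 2 (edgeR adjusted p = 0.0210) and -1.38 for the same 4 without it (0.0555). It was -1.99 with the library totals of 5 libraries, and -0.61 to -1.40 when 1 library was left out. The number of libraries, 3 per tissue, and counts under 100 for Acot1 limit the precision.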
